A study of Mus musculus with 12 samples.

Results

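Large T cell clones of the brain parenchyma were taken as clones of 10 or more cells, where a clone was a pair of 1 productive T cell receptor beta chain (TRB) and the alpha chain (TRA) with most unique molecular identifiers (UMIs), both by CDR3 nucleotide sequence, within a library. CDR3 is the loop that a receptor forms where its gene segments were joined. Cells with exactly 1 productive TRB and at least 1 productive TRA entered the count. There were 51 such clones with 1375 cells, of 4488 paired cells of the parenchyma and 5207 in the whole series. The clones were chosen by their number of cells, so their sizes are described and not tested. 5 clones held exactly 10 cells, just inside the limit, and 5 more clonotypes of 9 cells lay just outside it.

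CD45+ leukocytes had been sorted from brains of C57BL/6 mice, and paired receptors were sequenced from droplets in which each cDNA carries a cell barcode and a UMI. 2 libraries came from the brain parenchyma of 5xFADTg mice, whose transgenes encode mutant human amyloid precursor protein and presenilin and which build up amyloid plaques. They were set against 2 parenchyma libraries of NonTg mice, which lack the transgenes. The labels give no age or sex, and they do not say how many mice a library holds, so p-values measure the spread between libraries, which may be technical. 1 meninges library of each genotype was used only to look for the same clones.

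A T cell receptor chain is made by joining a V and a J segment, with a D segment between them in TRB, while bases are trimmed and added at random at the joints. Daughters of a T cell keep this sequence, so cells with the same TRB and TRA descend, as a rule, from 1 ancestor. Beta chains are fixed first in the thymus, and only 1 TRB is usually productive. Alpha chains can be rearranged on both chromosomes, so a clone may carry a second productive TRA.

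The largest clone of each library shows how the receptors are built. In the sequences, read 5′ to 3′ from the codon of the first CDR3 residue, capitals mark the bases that matched neither the V nor the J segment of GENCODE M21 (GRCm38), that is D bases and added bases. For the beta chain labelled TRBV10 no V match was found, so none are marked.
5xFADTg 1 clone 1, TRBV1 and TRBJ1-4: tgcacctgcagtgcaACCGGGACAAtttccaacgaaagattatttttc
5xFADTg 1 clone 1, TRAV7D-2 and TRAJ26: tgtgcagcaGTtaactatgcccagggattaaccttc
5xFADTg 2 clone 1, TRBV1 and TRBJ2-5: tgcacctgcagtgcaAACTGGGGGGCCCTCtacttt
5xFADTg 2 clone 1, TRAV10D and TRAJ42: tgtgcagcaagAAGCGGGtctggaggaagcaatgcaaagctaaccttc
NonTg 1 clone 1, TRBV10 and TRBJ2-7: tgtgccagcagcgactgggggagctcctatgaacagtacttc
NonTg 1 clone 1, TRAV2 and TRAJ39: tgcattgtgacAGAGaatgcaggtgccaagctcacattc
NonTg 2 clone 1, TRBV13-2 and TRBJ2-7: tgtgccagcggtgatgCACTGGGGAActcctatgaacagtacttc
NonTg 2 clone 1, TRAV8N-2 and TRAJ40: tgtgctacaggaaactacaaatacgtcttt
Clones are named by library and by rank of size. The alpha chain of NonTg 2 clone 1 has no added base: its V and J matches meet without a gap.

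Another set is shown because 5 large clones carried a TRB with 2 recurrent alpha chains.
5xFADTg 2 clones 5 and 6, shared TRB, TRBV1 and TRBJ1-5: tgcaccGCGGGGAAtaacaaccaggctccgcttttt
5xFADTg 2 clone 5, TRAV10 and TRAJ31: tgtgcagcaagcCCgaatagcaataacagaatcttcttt
5xFADTg 2 clone 6, TRAV7-5 and TRAJ32: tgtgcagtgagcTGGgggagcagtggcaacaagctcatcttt
NonTg 1 clone 12, TRAV9D-1 and TRAJ31: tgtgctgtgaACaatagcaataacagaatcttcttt
NonTg 1 clone 12, second TRA, TRAV4D-4 and TRAJ7: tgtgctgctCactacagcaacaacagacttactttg
NonTg 1 clone 14, TRAV9-1 and TRAJ18: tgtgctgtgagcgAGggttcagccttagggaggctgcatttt
NonTg 1 clone 14, second TRA, TRAV13-1 and TRAJ32: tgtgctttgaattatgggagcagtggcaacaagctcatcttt
NonTg 2 clone 3, TRAV15D-1-DV6D-1 and TRAJ15: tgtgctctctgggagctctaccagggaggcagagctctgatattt
NonTg 2 clone 3, second TRA, TRAV9D-3 and TRAJ22: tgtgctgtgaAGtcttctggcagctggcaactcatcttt
In 5xFADTg 2 the alpha chain of clone 5 is the second alpha chain of clone 6, and the reverse also holds.

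A further set shows beta chains that recur in type. 4 large clones used TRBV3 and had Gly-Arg-Arg in the middle of CDR3, each with its own alpha chain.
5xFADTg 1 clone 11, TRBV3 and TRBJ1-4: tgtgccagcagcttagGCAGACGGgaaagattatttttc
5xFADTg 2 clone 10, TRBV3 and TRBJ1-2: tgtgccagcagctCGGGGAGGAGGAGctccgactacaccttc
5xFADTg 2 clone 13, TRBV3 and TRBJ1-2: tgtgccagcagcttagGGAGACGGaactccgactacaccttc
5xFADTg 2 clone 14, TRBV3 and TRBJ1-4: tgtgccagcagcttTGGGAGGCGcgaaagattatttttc
The last set belongs to a family of TRBV3 and TRBJ2-2 chains around 5xFADTg 2 clone 11, here with the alpha chain that the first 3 of its clonotypes share.
5xFADTg 2 clone 11, 15 cells: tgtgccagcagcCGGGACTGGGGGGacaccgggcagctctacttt
5xFADTg 2, 9 cells: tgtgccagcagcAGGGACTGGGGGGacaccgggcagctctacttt
NonTg 1, 1 cell: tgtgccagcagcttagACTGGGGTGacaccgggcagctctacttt
Shared TRA, TRAV13-1 and TRAJ48: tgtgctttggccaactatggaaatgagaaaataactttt

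Per library, 12 large clones held 403 cells in 5xFADTg 1 and 18 held 459 cells in 5xFADTg 2, against 15 clones with 294 cells in NonTg 1 and 6 with 219 cells in NonTg 2. Large clones made up 33.4% (95% exact binomial interval 30.8 to 36.2%) and 31.6% (29.2 to 34.0%) of the paired cells in 5xFADTg libraries, against 27.7% (25 to 30.5%) and 28.6% (25.4 to 31.9%) in NonTg libraries. Such intervals cover counting error only, and the libraries held 766 to 1453 paired cells, so the same limit of 10 cells is a different share of each library. NonTg 2 had the fewest large clones and the most dominant of them, with 94 cells or 12.3% of its paired cells. Libraries held 22291984 to 26710709 reads and 101996 to 128700 UMIs over their listed contigs. No immunoglobulin, TRG or TRD contig was listed among 19419 contigs. Of 5193 barcodes of paired cells in the series, 14 occurred in more than 1 library. These included 9 cells of large clones, and in 0 of the 9 did the other library show the same clone.

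TRBV13-2 was among the 3 largest clones of each library, and TRBV1 led both 5xFADTg libraries. In 5xFADTg 1 they had TRBV1 with TRAV7D-2 (71 cells), TRBV17 with TRAV9-2 (64 cells) and TRBV13-2 with TRAV8N-2, which at 38 cells tied with a TRBV29 clone. In 5xFADTg 2 they had TRBV1 with TRAV10D (85 cells), TRBV5 with TRAV7-6 (69 cells) and TRBV13-2 with TRAV12D-3 (60 cells). NonTg 1 was led by TRBV10 with TRAV2 (39 cells), TRBV13-2 with TRAV7D-4 (34 cells) and TRBV16 with TRAV6D-5 (33 cells), and NonTg 2 by TRBV13-2 with TRAV8N-2 (94 cells), TRBV19 with TRAV6-5 (66 cells) and TRBV12-1 with TRAV15D-1-DV6D-1 (22 cells). Of the 51 clones, 0 had the same nucleotide pair in another parenchyma library or in a library of the other genotype. The same pair was found in the meninges of the genotype for 5 of 12 and 5 of 18 clones of the 5xFADTg libraries, against 12 of 15 and 3 of 6 clones of the NonTg libraries. Each genotype had 1 meninges library, with 326 clonotypes in 5xFADTg and 286 in NonTg. Genotype and meninges library thus cannot be told apart here, and the shares were not tested.

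**Figure D1:**
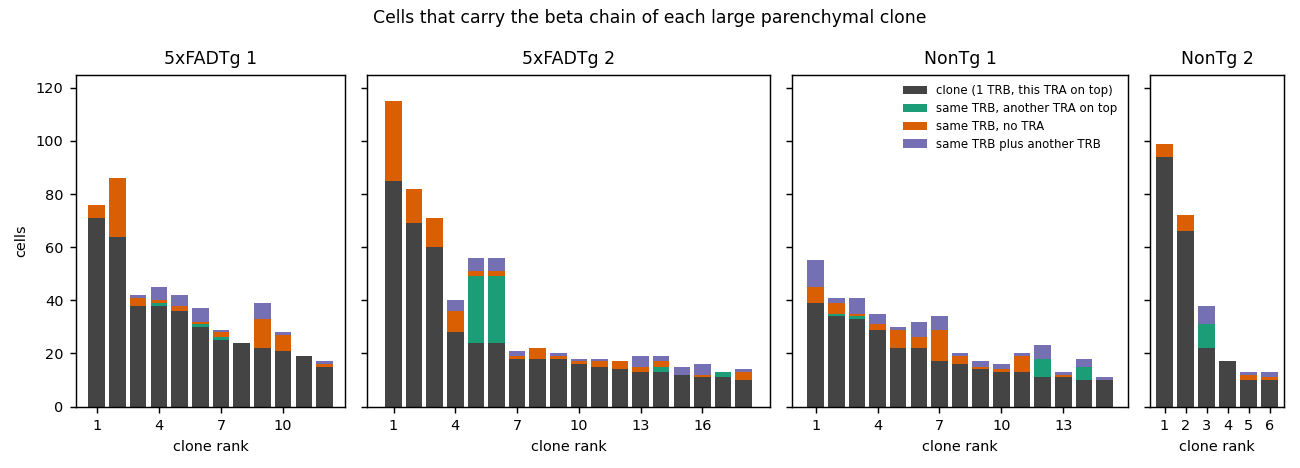
Cells that carry the TRB of each large clone, by library and clone rank. Dark bars are the clone's own cells, and colours add cells with the same TRB that the pairing left out or put in another clonotype (clones 5 and 6 of 5xFADTg 2 share a TRB, so their cells appear under both). Cells with another TRB are seen in clones under 60 cells and in 0 of the 7 clones above that.

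Segment calls were uniform within clones. All 51 clones had 1 V, 1 J and 1 D label over their cells, once the joint label TRBV12-2+TRBV13-2, which mixed with TRBV13-2 in 5 clones, was counted as TRBV13-2. The 2 J clusters of the TRB locus each lie next to their own constant gene, and 20 of 20 TRBJ1 clones had TRBC1 while 31 of 31 TRBJ2 clones had TRBC2. The deposited files give a D call in 2 of the 51 clones, 1 with TRBD1 and 1 with TRBD2. A direct search of the junction bases gave each clone to the D segment with the longer matching stretch, if that held at least 5 bases. Of 20 TRBJ1 clones, 11 went to TRBD1 and 1 to TRBD2, and in 1 both matched equally. Of the 30 TRBJ2 clones with a junction, 6 went to TRBD1 and 18 to TRBD2, and in 1 both matched equally. A clone given to 1 D segment can also hold 5 or more bases of the other. As background, TRBD1 lies upstream of both J clusters, and TRBD2 lies between them.

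TRBV1, TRBV13-2 and TRBV3 were each used by 7 of the 51 clones, followed by TRBV19 with 5 and TRBV29 with 4. TRBV1 (chromosome 6, 40891229 to 40891885, plus strand) was in 1 and 5 clones of the 5xFADTg libraries, against 1 and 0 clones of the NonTg libraries. 2 of the 5 are clones 5 and 6 of 5xFADTg 2, which share 1 TRB to the base. TRBV3 (chromosome 6, 41048290 to 41048828, plus strand) was in 2 and 4 clones of the 5xFADTg libraries, against 1 and 0 in the NonTg libraries. TRBV19 (chromosome 6, 41178375 to 41179048, plus strand) was in 0 and 1 clones of the 5xFADTg libraries, against 3 and 1 in the NonTg libraries. For TRBV1 the genotypes met at 1 clone, in 5xFADTg 1 and NonTg 1. For TRBV19 they met at 1 clone, in 5xFADTg 2 and NonTg 2. For TRBV3 they came nearest at 1 clone in NonTg 1 and 2 clones in 5xFADTg 1. The libraries held 12 and 18 large clones in 5xFADTg, against 15 and 6 in NonTg, so equal counts are unequal shares. Counts that meet or stay apart therefore do not show whether shares overlap between genotypes.

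Among J segments, TRBJ2-1 led with 11 clones, followed by TRBJ2-7 with 9 and by TRBJ1-1 and TRBJ1-2 with 7 each. NonTg 2 had 0 of its 6 large clones in the TRBJ1 cluster, where 6 clones set a limit of 50%. Alpha chains were spread more widely, over 31 TRAV and 28 TRAJ segments. TRAV6-6 was in 4 clones and TRAV10, TRAV13-1, TRAV16, TRAV7-4 and TRAV8-2 in 3 each, with near-identical D and N copies counted together. TRAJ31 was in 5 clones, TRAJ40 in 4 and TRAJ22 and TRAJ26 in 3 each. The 51 clones used 48 different combinations of TRBV and TRAV, of which TRBV1 with TRAV10, TRBV13-2 with TRAV8-2 and TRBV3 with TRAV6-6 occurred in 2 clones each.

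**Figure D2:**
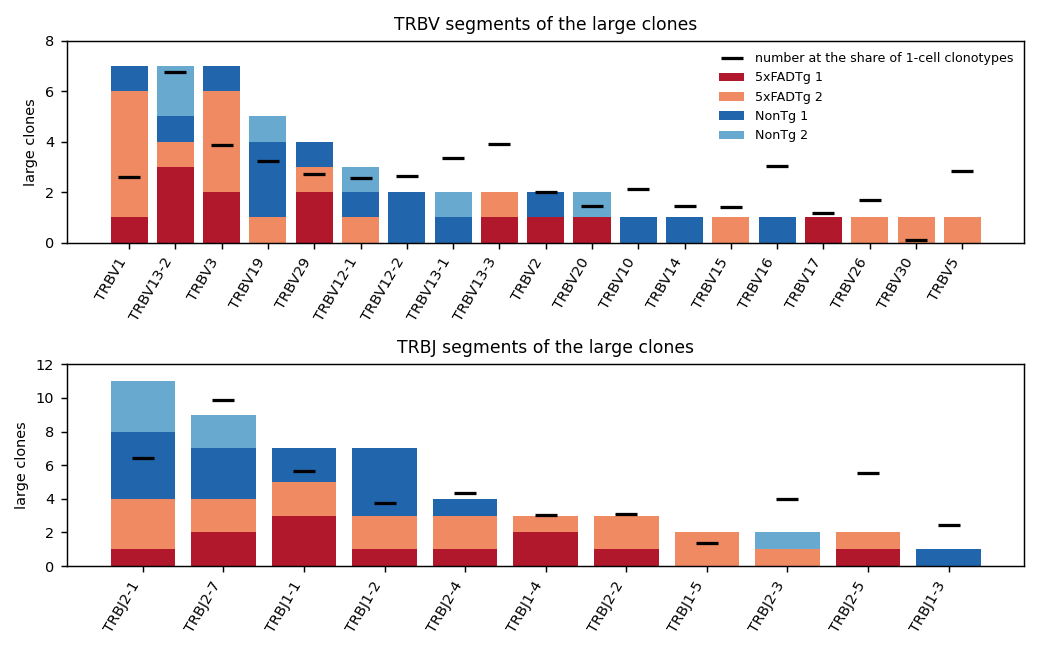
Number of large clones per TRBV (top) and TRBJ (bottom) segment, coloured by library. Black marks show the number that the share of the segment among 1-cell clonotypes of the parenchyma would give over 51 clones. TRBV1, TRBV13-2 and TRBV3 reach 7 clones each, and TRBJ2-1 reaches 11.

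To see whether large clones used other segments than clonotypes of 1 cell, numbers of clonotypes were compared within libraries. Of 121 segments tested, 0 passed the test (0.00% called, edgeR quasi-likelihood, adjusted p under 0.05), and 1 had an unadjusted p below 0.05. With TMM factors in place of the number of clonotypes as library size, 2 passed, TRBJ2-5 and TRBJ2-7, both lower in large clones, and with DESeq2 0 passed. The segment with the smallest p was TRAV2, in 2 of 51 large clones (3.92%) against 10 of 2119 1-cell clonotypes (0.472%). Its log2 fold change was 2.81 (SE 1.23, edgeR adjusted p = 0.894). TRBV1 was in 13.7% of large clones, against 5.10% of 1-cell clonotypes (log2 fold change 1.41 with an SE of 0.75, edgeR adjusted p = 0.894; 1.22 with the shared TRB counted once and 0.30 without 5xFADTg 2), and TRAJ5 in 3.92%, against 0.755% (2.28, SE 1.25, edgeR adjusted p = 0.894). On the lower side, TRBJ2-5 was in 3.92% of large clones, against 10.9% of 1-cell clonotypes (log2 fold change -1.46 with an SE of 0.96, edgeR adjusted p = 0.894). TRBV31 and TRAJ49 were in 0 of 51 large clones, which allows a share of up to 5.88%. Over lists of segments, 0 of 6 TRBJ1, 0 of 6 TRBJ2, 0 of 22 TRAJ61 to TRAJ31 and 0 of 21 TRAJ30 to TRAJ2 segments passed. Their median log2 fold changes were 0.17, -0.11, 0.06 and -0.68, beside -0.25 over all 121 segments. That median was -1.44 with TMM factors, so directions relative to 1-cell clonotypes depend on the scaling.

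Between genotypes, 9 segments had enough large clones for a fit and 0 passed (0.00% called, edgeR), with 0 at an unadjusted p below 0.05 and 0 called by DESeq2. TRBV19 was lowest in 5xFADTg, in 0 and 1 clones against 3 and 1 (log2 fold change -2.22 with an SE of 0.73, edgeR adjusted p = 0.516). TRBJ2-1 followed, in 1 and 3 clones of the 5xFADTg libraries against 4 and 3 of the NonTg libraries (-1.26, SE 0.63, edgeR adjusted p = 0.516). SEs were derived from the F statistic of the test and are no separate measure of counting error, which is wide at such counts. TRAJ31 had 1 and 1 clones against 2 and 1 (log2 fold change -1.0, edgeR adjusted p = 0.648). TRBV1 and TRBV3 each reached 1.87 (SE 1.5, edgeR adjusted p = 0.516), and TRBJ1-1, with 3 and 2 clones against 2 and 0, one of 0.75 (edgeR adjusted p = 0.658).

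The V call of the largest NonTg 1 clone needs care. GENCODE M21 lists TRBV10 (chromosome 6, 41091940 to 41092228) as a pseudogene, and of 132 clonotypes with this label in the series 0 matched its end while 132 began with a cysteine codon. The start of the beta chain of NonTg 1 clone 1 matches TRBV2, TRBV3, TRBV4 and TRBV5 of GENCODE M21 over 12 bases each, too few to choose between them.

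Beta junctions of the 50 clones that could be matched held 1 to 21 bases (median 10), and alpha junctions 0 to 7 (median 2). The shortest beta junction, 1 base, was in NonTg 1 clone 6, and the longest, 21 bases, in 5xFADTg 2 clone 12. Pooled over the 4 libraries, 15 of 50 large clones (30%) had an alpha chain with no junction base, against 342 of 2079 1-cell clonotypes (16.5%). This is a description with no test, and mean alpha junctions were shorter in large clones in only 2 of 4 libraries. CDR3 spanned 11 to 19 residues in TRB and 10 to 17 in TRA.

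Each clone counted once, mean TRB CDR3 length over large clones was 14.2 and 13.7 residues in the 5xFADTg libraries, against 14.4 and 14.5 residues in the NonTg libraries. The genotypes did not overlap, with a difference of -0.506 residues. The exact permutation p was 0.333, which is the smallest that 2 against 2 libraries allow, and 1 after adjustment over 12 values. Among these 12 values, no D call, 2 or more TRA in the usual cell and TRA UMIs also did not overlap. Any value without overlap gets this p, so non-overlap adds nothing to it. For TRB length the groups overlapped from 20 cells, with each cell counted once and with at least 2 UMIs per chain. Without 5xFADTg 2 the difference in length was -0.283 residues. Junction bases of TRB averaged 11.8 and 10.6 in 5xFADTg large clones, against 10.9 and 9.50 in NonTg large clones, and those values overlapped (exact permutation p = 0.667). Against 1-cell clonotypes of the same libraries, whose means were 9.84 and 10.0 bases in 5xFADTg and 10.2 and 9.85 bases in NonTg, large clones had longer TRB junctions in 3 of 4 libraries (difference 0.678 bases, exact sign-flip p = 0.25). That difference was 0.268 bases without 5xFADTg 1, 0.144 from 5 cells and 0.120 from 20 cells. TRA junctions averaged 1.58, 2.78, 3.29 and 1.5 bases in large clones of 5xFADTg 1, 5xFADTg 2, NonTg 1 and NonTg 2, against 2.63 to 2.71 in 1-cell clonotypes. They were lower in 2 of 4 libraries (difference -0.376 bases, exact sign-flip p = 0.5), and the difference was -0.108 without NonTg 2 and -0.124 without 5xFADTg 1.

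TRAJ segments of the upstream part of their cluster, TRAJ61 to TRAJ31, which are reached by early alpha rearrangements, were in 50%, 55.6%, 53.3% and 50% of large clones of 5xFADTg 1, 5xFADTg 2, NonTg 1 and NonTg 2, against 47.6%, 44.3%, 52.0% and 45.1% of 1-cell clonotypes of the same libraries. The share was higher in large clones in 4 of 4 libraries, by 4.98 percentage points (exact sign-flip p = 0.125, the smallest that 4 libraries allow, adjusted p = 0.75). The difference was 0.698 points for clones of 5 or more cells (exact sign-flip p = 1), 2.87 points without 5xFADTg 2 and 10.4 points against clonotypes of 2 to 9 cells. The TRBJ1 share was 50% and 38.9% in large clones of 5xFADTg, against 46.7% and 0% in those of NonTg, and overlapped between genotypes (exact permutation p = 0.667).

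Gly-Arg-Arg in TRBV3 chains was picked out after the values were seen and is described without a test. It was in 4 of 7 TRBV3 large clones, in 10 of 39 TRBV3 clonotypes of 2 to 9 cells and in 12 of 161 of 1 cell. Among other TRBV segments it was in 0 of 44, 1 of 287 and 6 of 1958 clonotypes of these sizes. Over all TRBV segments it was in 7.84% of large clones, against 0.849% of 1-cell clonotypes. Some other runs of 3 residues had like gaps, such as Leu-Gly-Leu and Gly-Asn-Asn, each in 5.88% against 0.472%. The large clones with Gly-Asn-Asn include clones 5 and 6 of 5xFADTg 2, which share 1 TRB. Other runs went the other way, such as Gly-Asn-Thr, in 5.88% against 6.80%. By library, 1 of 2 and 3 of 4 TRBV3 large clones of 5xFADTg had Gly-Arg-Arg, against 0 of 1 in NonTg 1, while NonTg 2 had 0 TRBV3 large clones. Over TRBV3 clonotypes of every size the libraries had 6 of 38 and 15 of 79 in 5xFADTg, against 4 of 50 and 1 of 40 in NonTg. The chain type was thus present in both genotypes, and the large clones with it were in 5xFADTg, where 61 cells belonged to them.

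**Figure D3:**
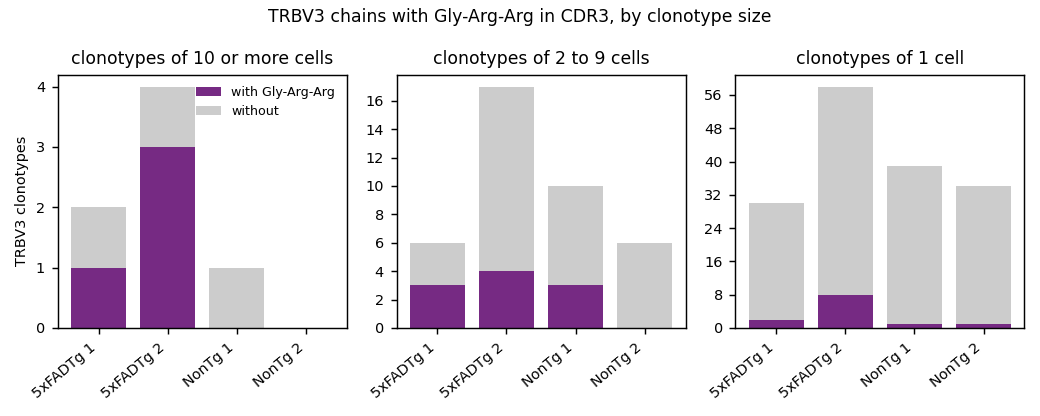
Numbers of TRBV3 clonotypes with (purple) and without (grey) Gly-Arg-Arg in CDR3 in each parenchyma library, by clonotype size; the vertical scales differ. It occurs in 4 of 7 large, 10 of 39 middle-sized and 12 of 161 1-cell TRBV3 clonotypes.

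With the meninges, 33 clonotypes in all 6 libraries had TRBV3 with Gly-Arg-Arg, and in 33 of 33 it lay at residues 6 to 8. They had 25 different TRB nucleotide sequences and 31 different TRA sequences. In the 4 large clones, 8 or 9 of the 9 codon bases matched neither the V nor the J segment, as the capitals in the printed sequences show. TRBJ1 segments were in 21 of 33 (63.6%), against 52 of 223 other TRBV3 clonotypes (23.3%). Alpha chains leaned to TRAV3-3, in 9 of 33 against 15 of 223, and to TRAV6-7-DV9, in 7 of 33 against 6 of 223. The most shared beta chain of this type was made in 3 libraries by 7 clonotypes with 3 nucleotide sequences, all 7 with TRBJ1-3.

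A family chosen in the same way surrounds 5xFADTg 2 clone 11, which has 15 cells. 6 clonotypes in 3 libraries of both genotypes shared TRBV3, TRBJ2-2 and the last 10 CDR3 residues, which begin with Asp-Trp-Gly. 6 of 6 had TRAV13-1, against 6 of 250 other TRBV3 clonotypes (2.40%). The 15-cell clone and a 9-cell clonotype of the same library had the same TRA nucleotide sequence. Their beta chains differed only by C13A, counted from 1 at the first base of CDR3, the 15-cell clone's base first, which leaves the amino acid unchanged. A 1-cell clonotype in NonTg 1 had this TRA to the base with a beta chain of the same type, and 1 cell in NonTg 2 had the TRB of the 15-cell clone to the base with another TRAV13-1 chain.

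1 of the 51 clones carried the invariant alpha chain of iNKT cells, T cells that see lipids on CD1d, and 0 that of MAIT cells, which see vitamin B metabolites on MR1. It was 5xFADTg 1 clone 6 with 30 cells, TRBV13-3 and TRBJ1-1, and its TRAV11 and TRAJ18 bases meet with no added base. TRAV11, with any TRAJ, was in 1.96% of large clones, against 5.38% of 1-cell clonotypes and 0.613% of those of 2 to 9 cells.
5xFADTg 1 clone 6, TRAV11 and TRAJ18: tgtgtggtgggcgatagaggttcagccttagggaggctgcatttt

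Over all large clones, 4.22% of the 1375 cells had 2 or more TRA, against 239 of 2119 1-cell clonotypes (11.3%). That share counts cells, so the biggest clones weigh most. With each clone counted once, 8.89% of large clones (mean over 4 libraries) had a usual cell with 2 or more TRA, against 11.2%. Large clones were higher in 2 libraries and lower in 2 (exact sign-flip p = 0.625). The pairing also splits cells with 2 alpha chains by which chain has more UMIs. Cells with 2 or more TRA were unevenly spread. In 42 of 51 large clones 0 cells had a second productive TRA, and 1 recurred in at least 50% of the cells in 4. In 5xFADTg 2 clone 6 it was in 16 of 24 cells, in NonTg 1 clone 12 in 6 of 11, in NonTg 1 clone 14 in 7 of 10 and in NonTg 2 clone 3 in 14 of 22. 5xFADTg 2 clone 5, with the same TRB as clone 6 and the same pair of alpha chains, had both in 11 of 24 cells. The sequences of these pairs are those printed above. Clones 5 and 6 thus differ in which of 2 alpha chains had more UMIs, and 50 distinct TRBs lie behind the 51 clones. Beside NonTg 1 clone 12, NonTg 1 clone 14 and NonTg 2 clone 3 there were 7, 5 and 9 further cells with the TRB and the other alpha chain on top, which the pairing counts as other clonotypes.

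Outside these 5 clones, 4 of 1284 cells (0.312%, 95% exact binomial interval 0.0849 to 0.796%) had 2 or more TRA, a share that follows in part from setting aside the clones with recurrent second chains. A clone whose usual cell has 2 or more TRA made up 0% and 5.56% of large clones in 5xFADTg, against 13.3% and 16.7% in NonTg, which did not overlap (exact permutation p = 0.333, adjusted p = 1). The difference of -12.2 percentage points was -2.57 with each cell counted once, and the genotypes then overlapped. These shares rest on 1 clone in 5xFADTg 2, 2 in NonTg 1 and 1 in NonTg 2.

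**Figure D4:**
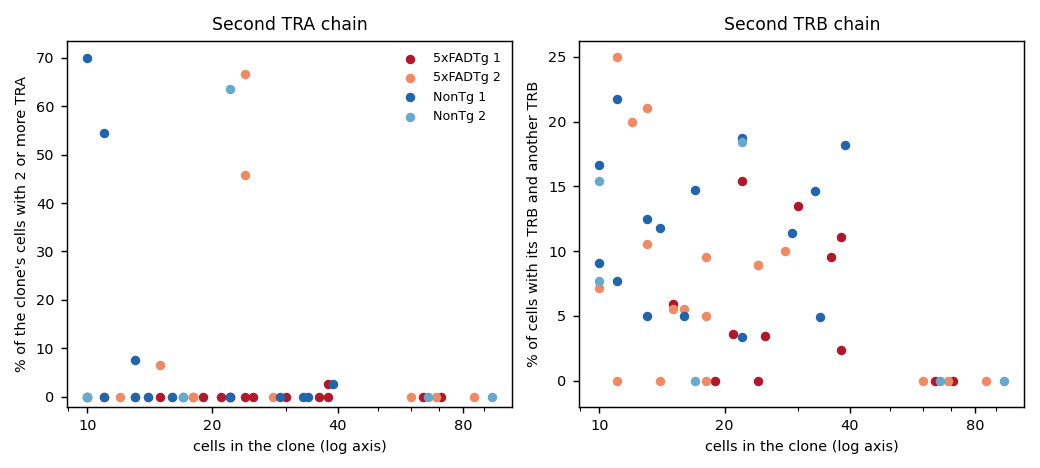
Second chains of each large clone against its number of cells (log axis). Left, the percentage of its cells with 2 or more TRA; right, the percentage of cells with its TRB that also hold another TRB. Recurrent second alpha chains stand at 45.8 to 70.0%, and the 7 clones of 60 or more cells lie at 0% in both panels.

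Cells with 2 or more TRB were left out of the clones, 390 of 5957 parenchyma cells. Among them, 112 carried the TRB of a large clone. In the 7 clones of 60 or more cells it was 0 of 601 cells, which allows a share of up to 0.499%. In the 43 TRBs of smaller large clones it was 112 of 1117 cells (10.0%, 95% exact binomial interval 8.33 to 11.9%), spread over 37 of them. The limit and the interval pool cells of different clones and cover counting error only. The split at 60 cells was chosen after the values were seen, and doublets were not called here, so their part in these cells was not tested. Within a clone a partner chain was shared by at most 2 of these cells, and 0 of the 8 TRB combinations seen in 3 or more cells held the TRB of a large clone. The biggest of these combinations, TRBV19 with TRBV20, both joined to TRBJ1-1, was in 33 cells of 5xFADTg 1, of which 27 had TRAV15-2-DV6-2 with TRAJ2 as top TRA. It would be a large clone but for the rule of exactly 1 TRB.

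Recurrent nonproductive chains, here contigs not called productive and matched between cells by V and J label, marked 6 large clones. Their V labels differed from those of the clone's own productive chains. Whether they are failed joints of the other chromosome was not tested. A nonproductive TRB was in 70 of 85 cells of 5xFADTg 2 clone 1 (TRBV31 and TRBJ1-3), and in 21 of 28, 12 of 18 and 9 of 16 cells of clones 4, 8 and 10 of that library. A nonproductive TRA was in 46 of 60 cells of 5xFADTg 2 clone 3 (TRAV8N-2 and TRAJ32) and in 56 of 94 cells of NonTg 2 clone 1 (TRAV13-1 and TRAJ32).

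Transcript numbers of the 2 chains differed widely. Median UMIs per clone were 3 to 18 for TRB (median over clones 7.5) and 5 to 109 for TRA (47.5), and TRA exceeded TRB in 48 of 51 clones. TRB was highest in 5xFADTg 2 clone 15 (18 UMIs, TRBV15) and clone 11 (16 UMIs, TRBV3) and lowest, at 3 UMIs, in 5xFADTg 1 clone 8 and NonTg 1 clone 13, both with TRBV2. TRA was highest in NonTg 2 clone 4 (109 UMIs, TRAV7-4) and clone 6 (88 UMIs, TRAV16N) and lowest, at 5 UMIs, in 5xFADTg 2 clone 3 (TRAV12D-3) and clone 13 (TRAV6N-6). Most of the spread lay between cells of 1 clone: clone accounted for a share of 0.166 of the variance of log2 UMIs in TRB (-0.00566 to 0.273 within single libraries) and 0.133 in TRA (0.0427 to 0.287), and within clones the SD was 0.90 and 1.87 on the log2 scale.

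4 clones had a median of 10 TRA UMIs or fewer, namely 5xFADTg 2 clones 3, 13 and 16 and NonTg 2 clone 1, with 5, 5, 9 and 8 UMIs. 1-cell clonotypes with the same TRAV, taken over all 4 libraries with D and N copies together, had medians of 42, 49, 32.5 and 50 UMIs. Libraries differ in this value: the median over all 1-cell clonotypes was 36.0 in 5xFADTg 2, against 51.0 in 5xFADTg 1, 51.0 in NonTg 1 and 63.5 in NonTg 2. In 5xFADTg 2 clone 3 and NonTg 2 clone 1, the nonproductive TRA had medians of 28 and 62.5 UMIs in the cells that listed it. Whether these chains take part in the low values was not tested.

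Large clones had median TRB UMIs of 8.0 and 7.25 in 5xFADTg 1 and 2 and of 7.0 and 7.25 in NonTg 1 and 2, against 9.0, 9.0, 8.0 and 8.0 in 1-cell clonotypes of the same libraries. They were lower in 4 of 4 libraries, by 1.13 UMIs on average (exact sign-flip p = 0.125, the smallest possible, adjusted p = 0.75). Median TRA UMIs of large clones were 46.8 and 31.3 in the 5xFADTg libraries, against 50 and 81.5 in the NonTg libraries. These did not overlap, at 39.0 ± 11 (SD) in 5xFADTg and 65.8 ± 22.3 (SD) in NonTg (n = 2 each, exact permutation p = 0.333, adjusted p = 1). The difference of -26.8 UMIs was -11 without NonTg 2. With each cell counted once it was -10.5 and the genotypes overlapped. 1-cell clonotypes of these libraries had 51.0 and 36.0 against 51.0 and 63.5, which overlapped.

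**Figure D5:**
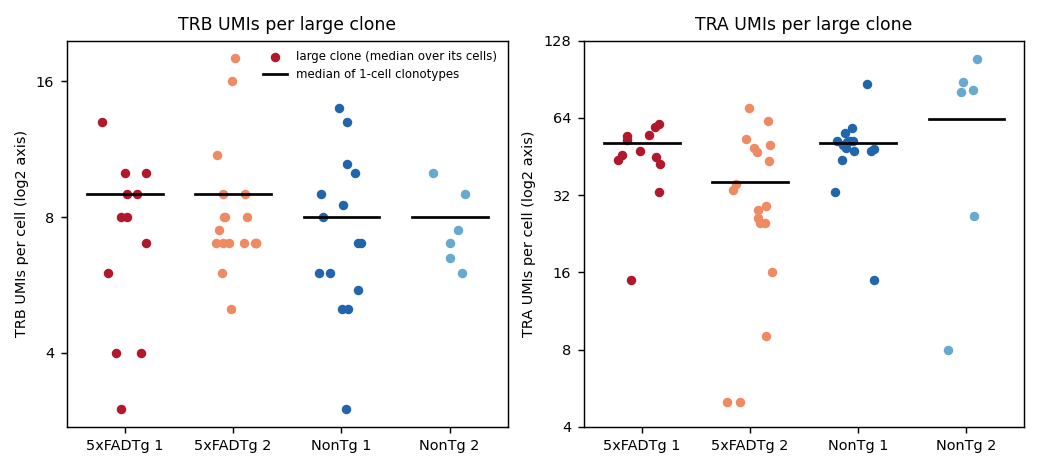
Median TRB (left) and TRA (right) UMIs per cell of each large clone, by library, on log2 axes. Points are clones and black lines the median of 1-cell clonotypes of the library. TRB medians run from 3 to 18 and TRA medians from 5 to 109.

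The pairing also left out 200 cells that had the TRB of a large clone and no TRA. Their share of a clone's cells with 1 TRB was 0 to 41.4% (median 7.32%), highest in NonTg 1 clone 7 with 12 such cells beside 17 paired ones, and 30 such cells stood beside the 85 of 5xFADTg 2 clone 1. Across the 51 clones this share and the median TRA UMIs had a Spearman rho of -0.290, a description over clones that share libraries. A further 31 paired cells in 11 clonotypes had the TRB of a large clone outside it. 9 of the 51 clones were spread over more than 1 clonotype identifier in the deposited files.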

How the data were processed

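The 4 parenchyma receptor libraries were analysed, with the 2 meninges libraries used for shared sequences. The gene expression samples were not analysed here. Per the file headers, the authors' contig tables give for each cell the segments, CDR3, productive status and raw counts of reads and UMIs with no normalization. The length of each contig, also deposited by the authors, was not used. Cell Ranger 6.0 and the build mm10 are named in the submitters' processing notes, and no further filter is given in the sources used here. No doublet caller was run.

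Junction bases were those outside the longest end match of at least 6 bases to the V segment (its last 60 bases) and to the J segment in GENCODE M21, where D and N copies were matched as labelled. CDR3 lengths count residues. Large clones and 1-cell clonotypes were compared by a two-sided exact sign-flip test over 4 libraries, and genotypes by a two-sided exact permutation test, with Benjamini-Hochberg adjustment over 12 values each. Segments were compared by the quasi-likelihood test of edgeR, version 4.0.16 (with limma 3.58.1, under R 4.3.3), on numbers of clonotypes, with library as block for clone size, at least 10 clonotypes (5 for genotype) per segment and an adjusted p threshold of 0.05. The SE of a log2 fold change was its absolute value divided by the square root of the F statistic of that test. DESeq2 1.42.0 was an alternative. The fits were tested on simulated data, where both missed some of the changes put in, so a segment not called may still differ. Limits beside a count of 0 are 3 counts of the total.

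Named segments were every one past the threshold, the 5 TRBV, 3 TRBJ, 5 TRAV and 3 TRAJ with most large clones (ties kept) and 3 segments per direction of change, those with the smallest p. The members, lists and tests were chosen with earlier results of these data known. Scripts ran in Python 3.11.15 on scipy 1.17.1, numpy 2.4.6 and pandas 2.3.3, and figures on matplotlib 3.10.9.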

Additional observations from a re-analysis of the deposited data

Results flagged for a closer look

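Among all the values compared by library between large clones and 1-cell clonotypes, 2 differences went opposite ways in the genotypes, in every library of each. They were picked out for this pattern after the values were seen, and the other values did not show it. How often it would arise by chance among so many values was not tested. The difference between the genotypes was not tested. The share of clones whose usual cell has 2 or more TRA was lower in large clones by -12.6 and -5.93 percentage points in 5xFADTg 1 and 2, and higher by 3.62 and 5.53 points in NonTg 1 and 2, where 2 clones and 1 clone make up the value. The share of clones with no D call differed by -5.50 and -2.34 points in 5xFADTg 1 and 2, and by 2.72 and 2.59 points in NonTg 1 and 2. It rests on 1 large clone with a D call in each 5xFADTg library.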

How the results depend on the processing

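The exact tests over 4 libraries cannot reach 0.05 in any setting. The edgeR and DESeq2 fits called 0 segments in every setting run, except that 2 segments, TRBJ2-5 (log2 fold change -2.77) and TRBJ2-7, passed between large clones and 1-cell clonotypes with TMM factors. The median over segments there was -1.44, against -0.25. TMM factors changed the direction of 16 of 24 named segments and DESeq2 of 18, among them TRBV1 (-0.28). In large clones minus 1-cell clonotypes, lower TRB UMIs and the higher share of TRAJ61 to TRAJ31 kept the sign of their mean in every setting run, at -0.500 to -1.25 UMIs (-0.168 for the mean of log2 UMIs) and 0.698 to 10.4 points. The direction in 4 of 4 libraries was not kept for TRAJ61 to TRAJ31 from 5 cells, from 20 cells, with each cell counted once, by TRB alone or for clones of at least 1 percent (exact sign-flip p above 0.125); for TRB UMIs p was also 0.25 in several settings. Other differences changed direction as follows, where the cause was not tested. From 5 cells the TRBD2 share differed by -0.304 percentage points. From 20 cells it was -1.06, no D call 0.339 and 2 or more TRA 1.27 points. With each cell counted once, TRBJ1 was 2.15, TRBD1 -0.227, TRBD2 -0.299 and no D call 0.526 points, TRA junctions 0.0189 bases and TRA UMIs -5.63. TRB alone gave 1.94 points for 2 or more TRA. Against clonotypes of 2 to 9 cells TRBJ1 was 1.8 and TRBD1 -0.448 points. The mean of log2 UMIs gave -0.0045 for TRA. Clones of at least 1 percent of paired cells, chosen after seeing the data, gave 1.89 for TRBJ1, -1.06 for TRBD2 and 0.756 points for no D call. Leaving out 1 library, TRBJ1 ranged over -6.55 to 10.7 (highest without NonTg 2), TRBD1 over -1.72 to 1.07, TRBD2 over -1.01 to 0.889, no D call over -1.75 to 0.990 and 2 or more TRA over -4.96 to 1.07 points, and TRA UMIs over -3.33 to 4.25.

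In 5xFADTg minus NonTg, TRA length was -0.102 residues and TRB UMIs 0 from 5 cells. From 20 cells TRBD2 was 0, TRA junctions 0.850 bases and TRB UMIs -0.250. With each cell counted once TRA junctions were 0.630 bases and TRB UMIs 0. With at least 2 UMIs per chain TRB UMIs were -0.500 and TRAJ61 to TRAJ31 -6.39 points. In clones of at least 1 percent TRBD2 was 0 and TRB UMIs -0.125, and with a shared TRB counted once, also added after seeing the data, TRAJ61 to TRAJ31 was -0.196 points. Leaving out 1 library, the range was -2.22 to 44.4 points for TRBJ1, 0 to 8.33 for TRBD1, 0 to 5.56 for TRBD2, -0.383 to 0.867 residues for TRA length, -1.11 to 0.681 bases for TRA junctions and -1.67 to 3.89 points for TRAJ61 to TRAJ31. A lone library was then assumed to vary like the other genotype. The replicate block left 0 of 9 segments called, with TRBV1 at 1.57 and TRBV19 at -2.34, and the 12 library values within pairs unchanged, with an exact sign-flip p of at least 0.5, the smallest 2 pairs allow. With 6 to 18 large clones per library, 1 clone moves a share by 5.56 to 16.7 points.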
